A study of Homo sapiens with 6 samples.

Results

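Caspases are cysteine proteases that cleave their substrates after aspartate, and 8 caspase genes were followed in HK2 cells after knockdown of OCRL. The genes were CASP8, CASP10, CASP9 and CASP2 as initiators, CASP6 as the executioner, and CASP4, CASP1 and CASP5 as inflammatory caspases. Every probe set that the platform annotation gives to 1 of these symbols was taken, which made 23 of the 22215 probe sets tested and 8 of 11963 named genes. Other caspases were not analysed here. HK2 cells derive from the proximal tubule of a human kidney and are immortalised. They carry papillomavirus oncogenes, which interfere with p53 and RB, and this limits them as a model of cell death in the tubule. Cells at 30% confluence received OCRL siRNA (3 arrays) or a non-targeting siRNA as the control (3 arrays) with the transfection reagent Dharmafect 4, and RNA was taken after 96 h. The extraction protocol names 3 separate experiments, and no untransfected group was analysed here.

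Initiator caspases are switched on by being brought together on a platform. Ligand-bound death receptors such as FAS recruit the adaptor FADD and the initiators caspase-8 and caspase-10, and the caspase-like protein encoded by CFLAR (FLIP) restrains them there. Cytochrome c from mitochondria assembles APAF1 and caspase-9 into the apoptosome, and the PIDDosome recruits caspase-2. Executioner caspases then cut structural and nuclear proteins, lamin A being a known target of caspase-6. Caspase-1 matures interleukin-1 beta and interleukin-18 in inflammasomes, and caspase-4 and caspase-5 are human sensors of cytosolic lipopolysaccharide that cleave gasdermin D. Caspases are made as inactive precursors, so a transcript level says nothing of their activity, which was not measured.

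OCRL, the gene for an inositol 5-phosphatase that is mutated in Lowe syndrome, was lower in every OCRL siRNA array. Probe set 203446_s_at read 7.52, 7.49 and 7.40 in OCRL siRNA cells and 9.49, 9.48 and 9.51 in control cells (log2 value), which left 24.6% of the control level, and 208316_s_at left 49.7%. The medians of the arrays were 7.27 to 7.30 in OCRL siRNA cells and 7.23 to 7.24 in control cells (log2 value), and Pearson's r between arrays across probe sets was 0.994 to 0.999. Of the epithelial markers, KRT18 was at 13.30 ± 0.045 in OCRL siRNA cells and 13.34 ± 0.082 in control cells (log2 value, SD, n = 3), while KRT7, EPCAM, KRT8 and KRT19 fell (4 of 6 measured markers). CDH1 was under the lower quartile on all arrays by its brightest probe set, which was not called. Its 1 other probe set, which is dimmer, was called by limma. Among 12 measured proximal tubule markers 4 rose and 2 fell. For the marker counts given here, the share over all genes was 15.5% called higher and 10.5% lower. LRP2, AQP1 and ANPEP were under the lower quartile on all 6 arrays, ANPEP being 1 of the 4 that rose. The leukocyte marker PTPRC lay there too, at 4.09 ± 0.032 in OCRL siRNA cells and 4.15 ± 0.13 in control cells. Of the 13 measured leukocyte markers, 6 lay below the lower quartile and 0 were called by limma, with 0 higher and 1 lower at an unadjusted p under 0.05. Their summed log2 value was 67.2 to 68.4 in OCRL siRNA cells and 67.6 to 69.2 in control cells. The fall of epithelial markers went along with the caspase results below, and its part in them was not tested.

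The caspase probe sets that limma called were all higher after OCRL knockdown. By limma with Benjamini-Hochberg adjustment over all probe sets (adjusted p under 0.05), 7 of 23 caspase probe sets were called, 7 higher and 0 lower. At an unadjusted p under 0.05 there were 7 higher and 1 lower, against 4191 higher and 3592 lower of all 22215 probe sets tested. In either direction that was 8 of 23 against 7783 of 22215, about the same share. Over all probe sets tested, 23.1% were called, 13.2% higher and 9.89% lower, while the share called higher among the caspases was 30.4%. The called probe sets belonged to CASP6 and CASP8 (2 of 2 each), CASP10 (1 of 4), CASP4 (1 of 2) and CASP2 (1 of 5), and those of CASP9, CASP1 and CASP5 were not called. The rises were small, with a largest fold of 1.44. The median log2 difference (OCRL siRNA minus control siRNA) was 0.10 over the 23 caspase probe sets and -0.01 over all tested. Groups did not overlap in 7 caspase probe sets that were higher and 1 that was lower, against 21.8% and 18.9% of all probe sets (40.7% in either direction). In either direction the caspase share was not above that of all probe sets. In cell cultures measured in bulk, more RNA per cell and more cells that carry it cannot be told apart.

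**Figure D1:**
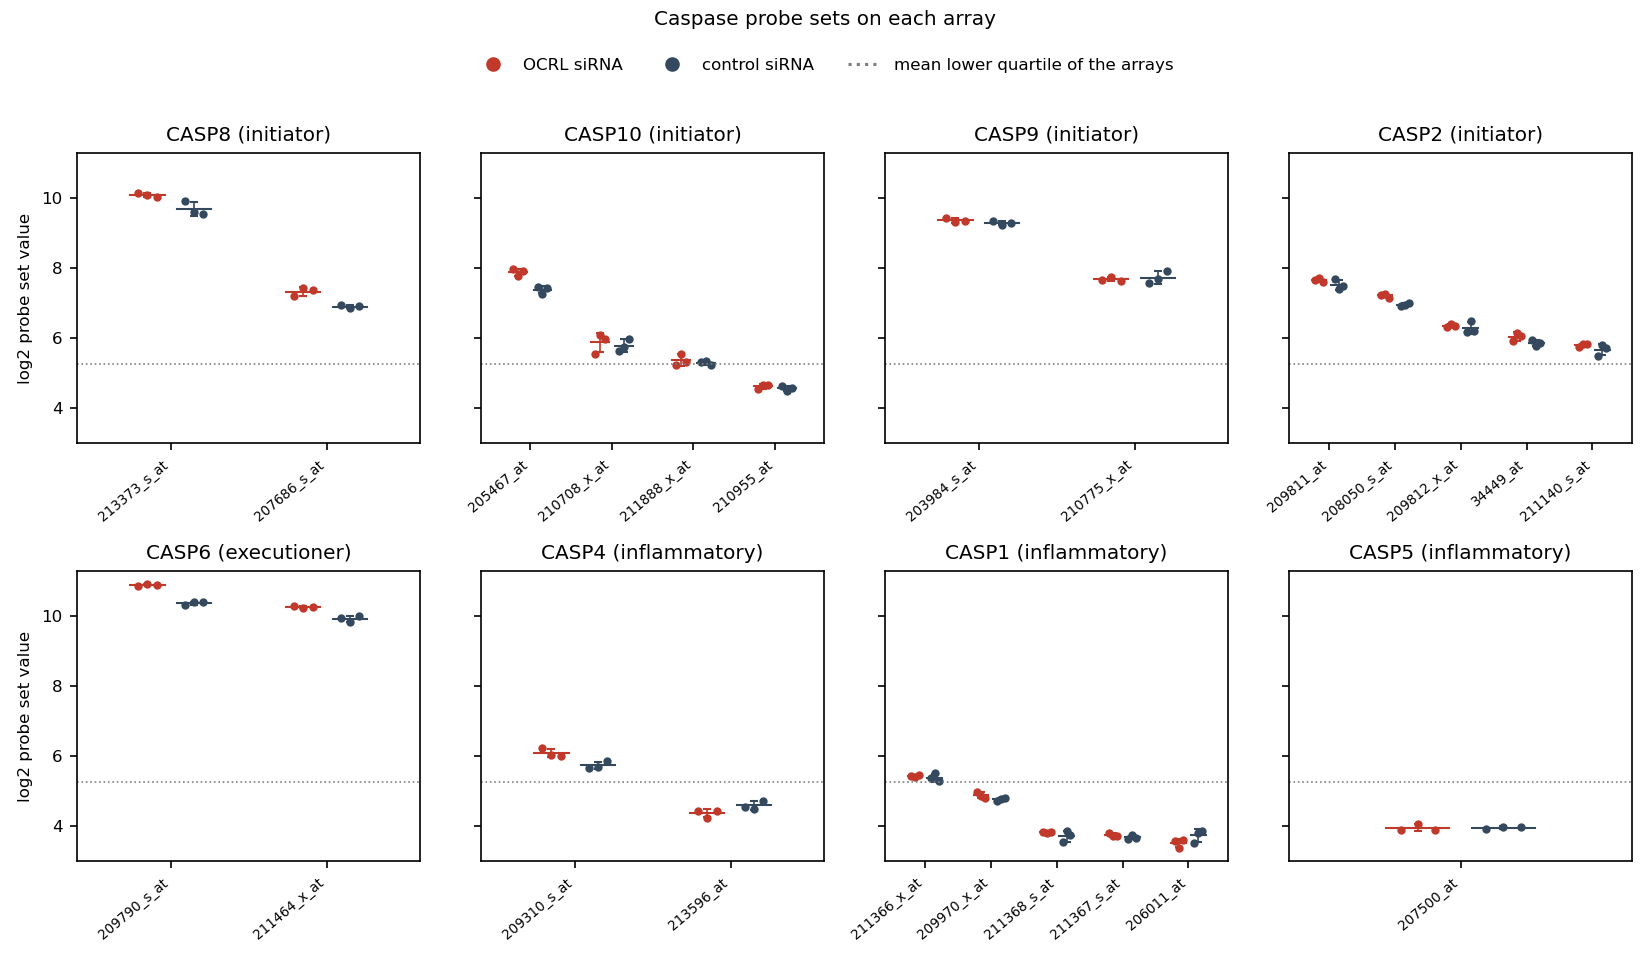
Log2 values of each caspase probe set on each array, with 1 panel per gene, red points for OCRL siRNA and dark points for control siRNA. Bars are means ± SD of 3 arrays and the dotted line is the mean lower quartile of the arrays. Both probe sets of CASP6 and of CASP8 are higher in OCRL siRNA cells with no overlap, and CASP5 and most CASP1 probe sets lie below the dotted line.

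By class, 4 of 13 initiator probe sets, 2 of 2 executioner probe sets and 1 of 8 inflammatory probe sets rose. Over all probe sets tested 13.2% were called higher, which is near the inflammatory share of 12.5%. Both executioner probe sets are of CASP6. The median log2 differences of the initiator, executioner and inflammatory probe sets were 0.13, 0.43 and 0.06. The classes differ in brightness as well, since 6 of 8 inflammatory probe sets lay below the lower quartile of all 6 arrays, against 1 of 13 initiator and 0 of 2 executioner probe sets. Whether brightness bears on the counts by class was not tested. With the brightest probe set standing for each gene, 4 of 8 caspase genes rose (CASP6, CASP10, CASP8 and CASP4), and 0 fell, against 15.5% of all genes called higher and 10.5% lower (26.0% in all). The groups did not overlap in these same 4 genes, all higher, against 25.1% of all genes higher and 19.8% lower (44.9% in all). The number of caspase genes called by limma was 2 without control siRNA replicate 2, OCRL siRNA replicate 1 or OCRL siRNA replicate 2, with CASP6 and CASP10 left.

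**Figure D2:**
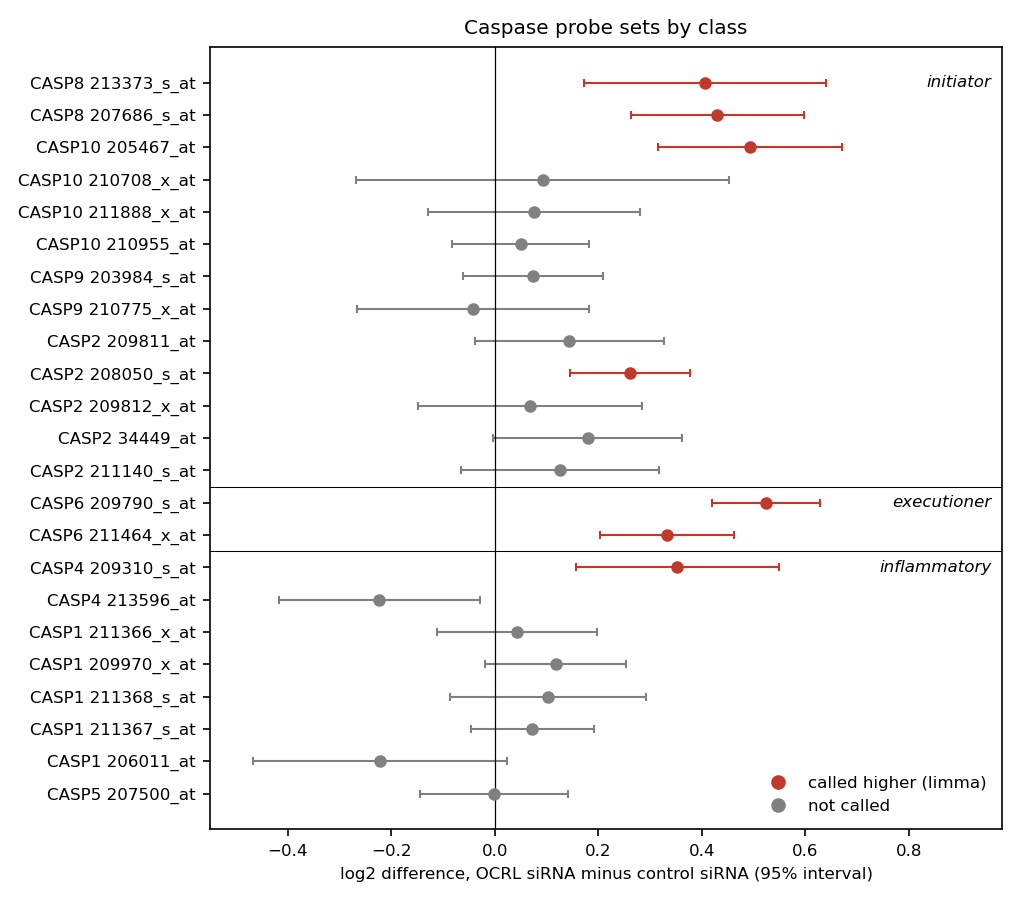
Log2 difference, OCRL siRNA minus control siRNA, of the 23 caspase probe sets with its moderated 95% interval, ordered by class. Red marks the 7 probe sets called higher by limma and grey the 16 that were not called. The largest difference is that of CASP6, at 0.52.

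CASP8 encodes the initiator of the death receptor pathway, and both of its probe sets rose by about the same amount. Probe set 213373_s_at read 10.15, 10.08 and 10.03 in OCRL siRNA cells and 9.90, 9.60 and 9.54 in control cells (log2 value). The groups did not overlap, and 1 control array, replicate 1, was closest to the OCRL siRNA arrays. The difference was 0.41 on the log2 scale (SE 0.098, 1.33-fold, adjusted p = 0.0257, limma). Probe set 207686_s_at read 7.19, 7.44 and 7.37 in OCRL siRNA cells and 6.94, 6.85 and 6.91 in control cells. All OCRL siRNA arrays again lay above all control arrays, with a log2 difference of 0.43 (SE 0.070, 1.35-fold, adjusted p = 0.00547, limma). Taken singly, each had p = 0.10 by an exact permutation test (two-sided), the smallest that 3 arrays against 3 allow. The call of 213373_s_at was lost on leaving out any 1 array other than control siRNA replicate 1 (adjusted p of 0.0578 to 0.0799), and without that array it was 0.00300, with a difference of 0.52. The call of 207686_s_at held in each of these.

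CASP10 is the close paralog of CASP8 and is its neighbour on chromosome 2, where the protein-coding genes run CFLAR, CASP10, CASP8 in the RefSeq order (GRCh38.p14). Its brightest probe set, 205467_at, read 7.97, 7.77 and 7.90 in OCRL siRNA cells and 7.46, 7.27 and 7.43 in control cells (log2 value). The arrays of the groups did not overlap. The log2 difference was 0.49 (SE 0.075, 1.41-fold, adjusted p = 0.00411, limma), and it passed with any 1 array left out. The other 3 probe sets of CASP10 were not called, with log2 differences of 0.05 to 0.09. Of these 210955_at lay below the lower quartile on all 6 arrays, at 4.63 ± 0.062 in OCRL siRNA cells and 4.58 ± 0.068 in control cells (95% interval of the difference -0.08 to 0.18). A level that low is not told from background here, so no gap between 205467_at and 210955_at is given. Which transcripts of CASP10 each probe set reads was not analysed here. With the mean of its probe sets, CASP10 missed the threshold (log2 difference 0.18, adjusted p = 0.0624, limma).

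Genes that act with these initiators went both ways. Death receptors, ligands and adaptors had 16 measured genes, of which 2 rose, 4 fell and 10 missed the threshold, with a median log2 difference of -0.14. Over all genes 15.5% were called higher and 10.5% lower, and with median centring the counts for this list were 1 higher and 6 lower. The receptor gene FAS rose by all 4 of its probe sets, by 1.09 to 1.54 on the log2 scale (2.14-fold to 2.91-fold), and its brightest was at 9.27 ± 0.028 in OCRL siRNA cells and 8.18 ± 0.10 in control cells (SE of the difference 0.060, adjusted p = 7.73e-05, limma). The gene of death receptor 6, TNFRSF21, fell 1.84-fold (log2 difference -0.88, SE 0.047, adjusted p = 7.45e-05, limma). The TRAIL receptor gene TNFRSF10B fell by 1 of 3 probe sets (log2 difference -0.49, SE 0.044) and the gene of its ligand TRAIL, TNFSF10, by 3 of 3 (-0.37 for the brightest, SE 0.044).

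CFLAR and FADD were picked out after their values were seen. CFLAR, the restrainer of caspase-8, fell in 9 of its 11 probe sets, by 1.15-fold to 1.78-fold, while 214618_at and 217654_at, which were not called, were under the lower quartile on all arrays. The probe set of CFLAR with the largest fall, 211316_x_at, read 8.17, 8.03 and 8.03 in OCRL siRNA cells and 8.97, 8.79 and 8.94 in control cells, with no overlap (log2 difference -0.83, SE 0.067, adjusted p = 3.11e-04, limma). The brightest, 209939_x_at, was at 11.12 ± 0.027 in OCRL siRNA cells and 11.32 ± 0.013 in control cells (log2 difference -0.21, SE 0.040). The fall of CFLAR thus ranged widely among probe sets. Of the 9 called, 8 carry the suffix _x_at, which Affymetrix gives to probe sets that may match other transcripts, and probe sets of a gene can share sequence, so they are not independent readings. This caution holds too for FAS, with 2 of 4 probe sets ending in _x_at, and for CASP6, with 1 of 2. The 2 probe sets of CASP8 may share sequence as well. FADD rose by 0.17 (SE 0.043, adjusted p = 0.0285), and without control siRNA replicate 1, 2 or 3 or OCRL siRNA replicate 1 or 3 its call was lost (adjusted p of 0.0536 to 0.0966), as it was with median centring (0.102).

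**Figure D3:**
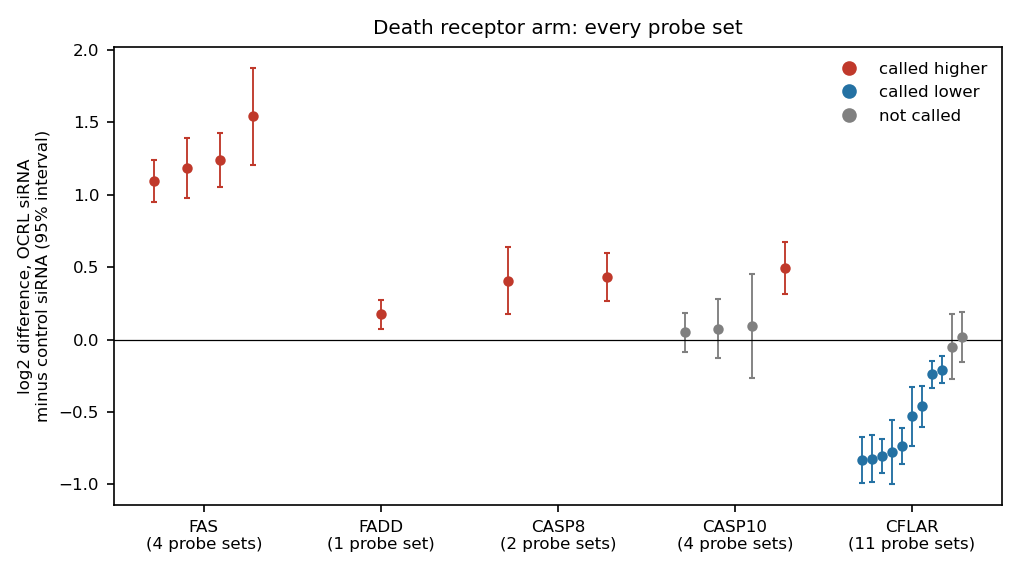
Log2 difference, OCRL siRNA minus control siRNA, with its moderated 95% interval for every probe set of FAS, FADD, CASP8, CASP10 and CFLAR. Red is called higher, blue called lower and grey not called. All 4 FAS and both CASP8 probe sets lie above 0, and the 9 of 11 CFLAR probe sets called lower lie below it. Of the 4 CASP10 probe sets 1 was called and 3 were not. The genes drawn were picked, CFLAR and FADD after their values were seen. TNFRSF21, TNFRSF10B and TNFSF10 of the same list, which fell, are not drawn.

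CASP9, the initiator of the mitochondrial pathway, did not pass by either probe set. Probe set 203984_s_at read 9.43, 9.31 and 9.33 in OCRL siRNA cells and 9.35, 9.21 and 9.28 in control cells. These values overlapped, and the log2 difference was 0.07 with a 95% interval of -0.06 to 0.21 (adjusted p = 0.417, limma). Probe set 210775_x_at was at 7.68 ± 0.064 in OCRL siRNA cells and 7.73 ± 0.18 in control cells (95% interval of the log2 difference -0.27 to 0.18). Rises of the size seen for CASP6 and CASP8 lie outside both intervals for CASP9.

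Among 11 measured genes of the apoptosome and the PIDDosome, 3 rose, 1 fell and 7 missed the threshold, against 15.5% higher and 10.5% lower over all genes. The mitochondrial protease gene HTRA2, whose product antagonises inhibitors of apoptosis, rose 1.52-fold (log2 difference 0.61, SE 0.045, adjusted p = 2.19e-04, limma). The apoptosome scaffold gene APAF1 rose (0.34, SE 0.062) and the cytochrome c gene CYCS fell (-0.22, SE 0.040). The gene of the mitochondrial flavoprotein AIFM1 rose by 0.20 (adjusted p = 0.0485), a call lost on leaving out any 1 of the 6 arrays (adjusted p of 0.0528 to 0.136). It was also lost with quantile normalisation (0.0632), median centring (0.0877) and array weights (0.0759). Of 5 measured inhibitors of apoptosis, XIAP, which binds caspase-9, rose by 1 of 2 probe sets (0.43, SE 0.042, adjusted p = 6.16e-04) and 0 fell, with 2 higher and 0 lower at an unadjusted p under 0.05.

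CASP2 has 5 probe sets, and 1 of them rose. Probe set 208050_s_at read 7.25, 7.25 and 7.16 in OCRL siRNA cells and 6.91, 6.96 and 7.00 in control cells, with no overlap. Its log2 difference was 0.26 (SE 0.049, 1.20-fold, adjusted p = 0.00927, limma). The other 4 had log2 differences of 0.07 to 0.18, all above 0, and their groups overlapped. The mean over the 5 probe sets of CASP2 passed (log2 difference 0.16, SE 0.041, adjusted p = 0.0312, limma over genes). The brightest, 209811_at, missed the threshold (0.14, adjusted p = 0.237) but was called without control siRNA replicate 1 (0.22, adjusted p = 0.0358).

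CASP6, the executioner followed here, had the largest difference of the 23 probe sets and the smallest adjusted p. Probe set 209790_s_at read 10.86, 10.89 and 10.88 in OCRL siRNA cells and 10.30, 10.38 and 10.38 in control cells (log2 value). The OCRL siRNA arrays lay close together and all above the controls. The log2 difference was 0.52 (SE 0.044, 95% interval 0.42 to 0.63, 1.44-fold, adjusted p = 3.76e-04, limma). Probe set 211464_x_at read 10.28, 10.22 and 10.25 in OCRL siRNA cells and 9.95, 9.82 and 9.98 in control cells. It also showed no overlap, with a smaller log2 difference of 0.33 (SE 0.055, 1.26-fold, adjusted p = 0.00548). Both calls held with any 1 array left out, at adjusted p of up to 0.0252.

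Genes whose products caspases cleave went both ways: among 21 measured, 4 rose, 4 fell and 13 missed the threshold, with a median log2 difference of -0.00. The share over all genes was 15.5% higher and 10.5% lower, while centring each array on its median gave 2 risers and 4 fallers among the substrates. Those with the smallest p were the kinase genes STK3 (log2 difference -0.38, SE 0.045) and PAK2 (-0.30, SE 0.042), the spectrin gene SPTAN1 (-0.40, SE 0.061) and the actin-severing gelsolin gene GSN, which rose (0.24, SE 0.045). Each of these 4 was called in 1 probe set and in none of its others. The lamin A gene LMNA was at 10.99 ± 0.015 in OCRL siRNA cells and 10.99 ± 0.064 in control cells by its brightest probe set (adjusted p = 0.984, limma). Of its 3 further probe sets, 2 were called higher (log2 differences 0.20 and 0.22). The last, 212089_at, was higher without overlap and not called (0.16). LMNA was picked out because its product is a caspase-6 target. The count of called substrates was 5, 4, 5 and 4 without control siRNA replicate 2, control siRNA replicate 3, OCRL siRNA replicate 1 and OCRL siRNA replicate 3.

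The protein-coding genes CASP4, CASP5 and CASP1 follow each other in that order on chromosome 11 (RefSeq), and 1 of the 3 genes rose. CASP4 has 2 probe sets whose differences had opposite signs, and 1 of them was called. Probe set 209310_s_at read 6.23, 6.04 and 5.99 in OCRL siRNA cells and 5.66, 5.69 and 5.86 in control cells (log2 value). The groups did not overlap, and the log2 difference was 0.35 (SE 0.083, 1.28-fold, adjusted p = 0.0227, limma). Probe set 213596_at read 4.45, 4.25 and 4.43 in OCRL siRNA cells and 4.56, 4.50 and 4.73 in control cells. This one was lower without overlap and was not called (log2 difference -0.22, SE 0.081, adjusted p = 0.0977), and it lay below the lower quartile of all arrays. The call of 209310_s_at was lost without control siRNA replicate 1 or 2 or OCRL siRNA replicate 1 or 2 (adjusted p of 0.0503 to 0.0717), and the mean of both probe sets was not called (log2 difference 0.06, adjusted p = 0.574). The rise of CASP4 therefore rests on 1 probe set.

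CASP1 and CASP5 gave little signal. Probe set 211366_x_at of CASP1 read 5.42, 5.40 and 5.47 in OCRL siRNA cells and 5.36, 5.51 and 5.29 in control cells, just above the lower quartile, with overlap and a log2 difference of 0.04 (95% interval -0.11 to 0.20). The other 4 probe sets of CASP1 were under the lower quartile on all arrays, with log2 differences of -0.22 to 0.12. The lowest of these, 206011_at, was called lower without control siRNA replicate 1 (log2 difference -0.33, adjusted p = 0.0383) and with array weights, against -0.22 and 0.179 over all arrays. The 1 probe set of CASP5, 207500_at, was at 3.96 ± 0.099 in OCRL siRNA cells and 3.96 ± 0.037 in control cells (95% interval of the log2 difference -0.15 to 0.14). For CASP5 and most of CASP1 the signal cannot be told from background, since the deposited table holds no detection call.

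Inflammasome and pyroptosis genes numbered 19 measured, of which 3 rose, 2 fell and 14 missed the threshold, with a median log2 difference of 0.09. Those shares are near the 15.5% higher and 10.5% lower over all genes, so the counts say nothing particular of this list. PYCARD, the adaptor (ASC) that joins sensors to caspase-1, rose 1.46-fold, to 9.12 ± 0.043 in OCRL siRNA cells against 8.58 ± 0.099 in control cells (log2 difference 0.54, SE 0.061, adjusted p = 0.00115, limma). The pore-forming gasdermin gene GSDME (0.38, SE 0.040) and the interferon-induced GTPase gene GBP2 (0.43, SE 0.071) rose too. NLRP2 fell by 0.24 (SE 0.063, adjusted p = 0.0358) at a level below the lower quartile, and its call was lost on leaving out any 1 array (adjusted p of 0.0522 to 0.107). IL18, the gene of a caspase-1 substrate named here after its value was seen, fell by 0.28 (SE 0.080, adjusted p = 0.0476), and it lost its call without control siRNA replicate 3 or OCRL siRNA replicate 1, 2 or 3 (adjusted p of 0.0789 to 0.127). The count of called inflammasome genes was 3 without OCRL siRNA replicate 1 or 2.

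Of 10 measured factors known to act on caspase genes, 2 rose and 0 fell by limma. The share that rose is near the 15.5% called higher over all genes, where 10.5% were called lower (26.0% in all). At an unadjusted p under 0.05 there were 3 higher and 1 lower, against 4191 higher and 3592 lower of all 22215 probe sets. The trend and robust setting or leaving out dim probe sets gave 4 called factors, 3 higher and 1 lower. The risers were the interferon regulatory factor genes IRF2 (log2 difference 0.39, SE 0.057) and IRF1 (0.24, SE 0.047). IRF1 lost its call without OCRL siRNA replicate 3 (0.22, adjusted p = 0.0511).

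Promoter sequence (RefSeq, GRCh38.p14, 250 bases before to 50 after a start site) was at hand for 6 of the 8 caspases, in 10 windows. It is shown for CASP6 and CASP8, the genes whose probe sets rose throughout, and for the neighbours CASP4 and CASP5, of which CASP4 rose by 1 probe set and CASP5 did not pass. The CASP6 window is chr4:109703396-109703695 on the minus strand, with GC boxes (GGGCGG, the element of SP1) in capitals. The others are the CASP8 window chr2:201233213-201233512 on the plus strand (the most upstream of 3), the CASP4 window chr11:104968525-104968824 on the minus strand and the CASP5 window chr11:105023119-105023418 on the minus strand, with the interferon response element core (GAAA, any 2 bases, GAAA) and the STAT element TTCNNNGAA in capitals. Both strands were searched.
CASP6: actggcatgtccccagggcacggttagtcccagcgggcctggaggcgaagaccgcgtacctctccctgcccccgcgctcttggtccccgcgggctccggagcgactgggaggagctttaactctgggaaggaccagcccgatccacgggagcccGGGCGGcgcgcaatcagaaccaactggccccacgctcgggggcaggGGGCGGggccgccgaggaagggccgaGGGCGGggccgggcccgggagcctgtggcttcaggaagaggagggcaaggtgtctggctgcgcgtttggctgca
CASP8: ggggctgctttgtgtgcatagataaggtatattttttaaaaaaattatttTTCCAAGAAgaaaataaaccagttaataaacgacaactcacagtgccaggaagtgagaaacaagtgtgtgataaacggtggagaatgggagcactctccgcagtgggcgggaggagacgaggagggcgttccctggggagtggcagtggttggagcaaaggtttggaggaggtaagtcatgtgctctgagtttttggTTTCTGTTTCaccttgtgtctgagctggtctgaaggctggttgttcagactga
CASP4: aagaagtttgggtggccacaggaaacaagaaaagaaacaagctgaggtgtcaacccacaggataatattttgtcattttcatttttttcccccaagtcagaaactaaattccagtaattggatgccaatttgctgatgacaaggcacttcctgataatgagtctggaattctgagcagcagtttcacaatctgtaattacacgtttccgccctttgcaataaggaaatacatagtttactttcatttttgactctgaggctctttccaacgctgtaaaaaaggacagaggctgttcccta
CASP5: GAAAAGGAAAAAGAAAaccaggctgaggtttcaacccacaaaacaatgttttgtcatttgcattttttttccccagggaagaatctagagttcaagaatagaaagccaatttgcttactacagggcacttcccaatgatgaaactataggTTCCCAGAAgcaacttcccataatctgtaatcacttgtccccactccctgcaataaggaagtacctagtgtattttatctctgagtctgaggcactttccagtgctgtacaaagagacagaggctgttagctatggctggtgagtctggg

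The CASP6 window held 3 GC boxes and neither the interferon core nor TTCNNNGAA, and GC boxes are in 45.0% of all 35116 promoter windows. The CASP8 and CASP4 windows shown each held 1 GC box too, which is not in capitals. The CASP8 window shown held 1 match to each of the interferon elements, and the further CASP8 windows held neither. The CASP5 window held 2 overlapping matches to the interferon core and 1 to TTCNNNGAA, and the CASP4 window held none. Among all promoter windows, 3.57% hold the interferon core and 7.66% TTCNNNGAA. The windows of CASP4 and CASP5 were 68.3% identical in a global alignment, against 44.3% to 49.2% for the other pairs shown. The matches are descriptions of letters and not of binding, and their part in any change was not tested.

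The genes whose profile over the 6 arrays was most like that of CASP6 were PLSCR1, QPRT, PLEK2, H2AX and PSENEN, with Pearson's r of 0.999 to 1.000. These points share the split into OCRL siRNA and control siRNA arrays, and 1773 of 11955 genes had an r over 0.9 with CASP6, and nothing further was read from it. The log2 differences of these genes ran from 0.28 for PLSCR1, a phospholipid scramblase, to 0.96 for QPRT, an enzyme of NAD synthesis.

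**Figure D4:**
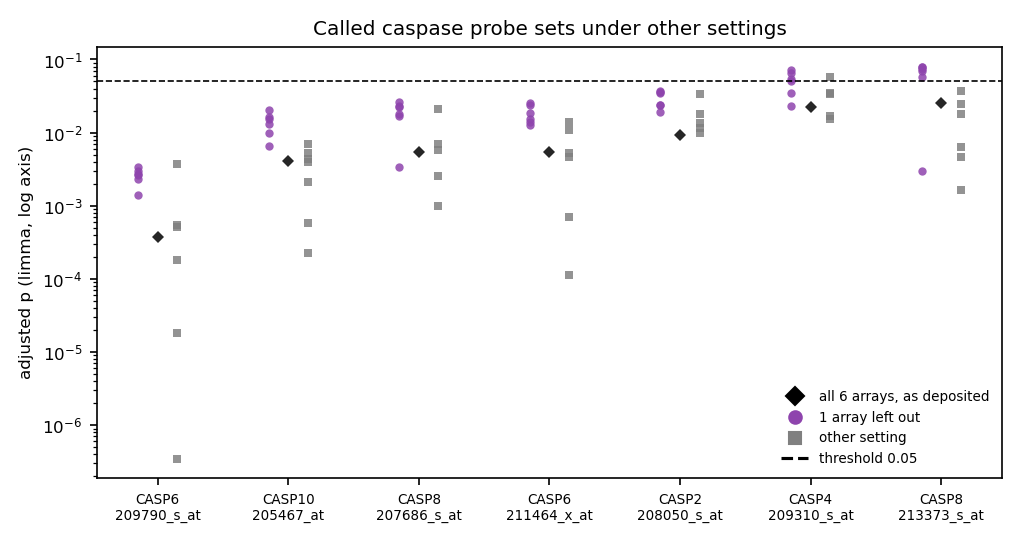
Adjusted p (limma, log axis) of the 7 called caspase probe sets over all arrays as deposited (diamonds), with 1 array left out (circles) and under the other settings other than the 1.5-fold minimum (squares). The dashed line is the threshold of 0.05. Only CASP4 209310_s_at and CASP8 213373_s_at cross the line in any of the settings drawn.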

How the data were processed

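Total RNA was hybridised to single-colour Affymetrix arrays, 1 per sample, per the labels' protocols. The deposited values are on a log2 scale, 1 per probe set. Per the submitters' processing notes the tools were affy and RMA, with version and genome build not given in the sources used here. A total of 62 AFFX control probe sets of 22277 were left out. Genes were named from GEO's platform annotation, with 19064 probe sets having 1 symbol, 1043 several (not named) and 2108 none. OCRL siRNA was compared with control siRNA by limma 3.58.1 in R 4.3.3 (group as the only term, two-sided, Benjamini-Hochberg over 22215 probe sets, threshold 0.05). SE and intervals are moderated. A gene was represented by its brightest probe set. The caspases and the lists were chosen with earlier results of these data known. Up to 4 called genes of each list with the smallest p were named, or the 1 with the smallest p where none was called. The fit was tested on simulated data with 22215 probe sets. The number of arrays limits the precision. Alternatives were a replicate block, each array left out, other scalings, weights and filters, and other rules for the probe set of a gene. Promoters were aligned with Biopython 1.88.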

Additional observations from a re-analysis of the deposited data

How the results depend on the processing

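The 7 caspase probe sets called higher were called under quantile normalisation, median centring, trend and robust settings and array weights alike, and array weights added CASP1 206011_at, lower. Median centring lowered the median log2 difference of all probe sets to -0.05 from -0.01 and turned the split of all calls to 2274 higher and 3138 lower, from 2939 and 2198, and quantile normalisation gave 2746 and 2516. With a 1.5-fold minimum, limma called 806 probe sets, 0 of the caspase probe sets, 0 of the caspase genes and 3 genes of the 6 pathway lists (26 without it), where 8 caspase probe sets had an unadjusted p under 0.05. Without probe sets ending in _s_at or _x_at, which are 16 of the 23 here, 2348 probe sets, 1 caspase probe set, 1 caspase gene (CASP10) and 13 list genes were called, and CASP6, CASP8, CASP9 and OCRL had no value. With dim probe sets left out 4 caspase probe sets were called. Of those kept, CASP2 209811_at, CASP9 203984_s_at and CASP9 210775_x_at were not called. The share called over all kept probe sets is not given here. The others called in the main fit, CASP2 208050_s_at, CASP4 209310_s_at and CASP8 207686_s_at, were removed by this filter and had no value. Leaving out 1 array gave 5 to 8 caspase probe sets and 2 to 4 caspase genes. Those called without control siRNA replicate 1 included CASP1 206011_at, which was lower. The groups share replicate numbers, and whether these pair the samples cannot be told from 3 arrays a group. The correlations of deviations were 0.14, 0.12 and -0.01 for the numbers 1, 2 and 3. Of each group, 2 of 3 arrays correlated best with their own number. The main fit used no pairing. With a replicate block 4571 probe sets and 6 caspase probe sets were called, the call of CASP4 209310_s_at being lost (adjusted p = 0.0585), as were those of FADD (0.0710), AIFM1 (0.0994) and IL18 (0.0633), and 5 substrate genes were called (2 higher, 3 lower). The exact tests of probe sets of 1 gene against each other, in 8 pairs, could not pass with 3 arrays a group (smallest p 0.10) and nothing was drawn from them. The mean of the probe sets gave 3 caspase genes and the most variable probe set 5.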

Other observations

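The annotation holds a pair of genes with caspase-type symbols that were not among those followed. CASP8AP2, whose product binds caspase-8 and is also known from histone gene expression, was at 10.21 ± 0.017 in OCRL siRNA cells and 10.09 ± 0.053 in control cells (log2 value, SD, n = 3), higher without overlap and not called (log2 difference 0.11, adjusted p = 0.125, limma). CASP4LP was at 3.69 ± 0.083 in OCRL siRNA cells and 3.71 ± 0.063 in control cells, under the lower quartile on all arrays.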
